A study of Mus musculus with 7 samples.

Results

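The 30 genes described here are 11 listed for DNA replication and 19 listed for mitosis, found by symbol among 55357 features, and all 30 were present. The second list mostly holds genes of chromosome segregation, beside Pclaf, Hmgb2, Stmn1 and Mki67, which have other or wider roles. The replication genes were Mcm2, Mcm3, Mcm4, Mcm5, Mcm6, Mcm7, Pcna, Tyms, Rrm1, Rrm2 and Tk1. The mitosis genes were Mki67, Top2a, Birc5, Cdk1, Ccnb1, Ccnb2, Ccna2, Cdc20, Cenpa, Cenpf, Aurkb, Nusap1, Kif11, Plk1, Tpx2, Ube2c, Hmgb2, Stmn1 and Pclaf.

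Before a cell divides, the MCM helicase opens DNA, the clamp encoded by Pcna holds the polymerases on it, and Tyms, Rrm1, Rrm2 and Tk1 supply its nucleotides. Cyclins B and A with Cdk1 then start mitosis, Kif11, Tpx2, Aurkb, Birc5 and Plk1 build and check the spindle, and Cdc20 and Ube2c direct the degradation that ends it. In resting lymphocytes most of these genes are low, and interleukin 2 and antigen are known to induce them. E2F factors act on the replication genes, and the DREAM and MuvB complexes act through CHR elements, often near CCAAT boxes, on the mitosis genes.

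Single cells of mouse liver were sequenced from droplet 3′ libraries, 2 weeks after plasmids had been given by hydrodynamic tail vein injection, in which a large fluid volume forced in quickly carries DNA into hepatocytes. All 7 samples carried Nras and C-myc plasmids, oncogenes that together start liver tumours. The 3 control samples carried only these, and the 4 treated samples carried an IL-2/CD25 plasmid as well, which joins interleukin 2 to a chain of its receptor. The labels give no strain, age or sex, do not say whether samples were separate animals, name the tissue of all 7 as HCC tissue and give them the same batch, so p-values measure the spread between these samples, which may be technical.

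Each library held 7263 to 10637 barcodes and 37653600 to 181755269 UMIs, and 62304 cells passed the filters, of which 54920 (88.1%) were given a type by marker genes. Levels are given as CPM, the UMIs of a gene per 1000000 UMIs summed. Over all cells Il2 was at 0.452 to 0.620 CPM in control and 2.99 to 3.58 in treated samples, and Il2ra, which encodes CD25, at 1.12 to 3.51 and 43.3 to 70.1. Library pairs shared 14 to 37 barcodes, at most 0.385% of the smaller library. Keratin-high tumour cells made up 5.89 to 26.7% of kept cells in control and 0.0289 to 0.759% in treated samples. In the control tumour cells Nras stood at 3192 to 3271 and Myc at 2149 to 2502 CPM, and in the 2 treated samples with at least 20 such cells at 198 to 268 and 45.6 to 53.7. The keratin-high cells of treated samples thus did not carry the 2 oncogenes at the control level, and no comparison of tumour cells between the groups is given. Deeper cells give more UMIs, so every share of cells below rests on cells thinned to 2000 UMIs, unless it is called unthinned. Thinning left out 6584 of 25444 control cells and 2961 of 36860 treated cells with fewer UMIs.

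Mitosis and replication members differed in the words of their promoters, and the stretches shown are examples. RefSeq promoters (GRCm38.p6, 250 bases before to 50 after a start) matched 25 of the 30 members. The CHR word TTTGAA, on either strand, was present in 11 of 15 mitosis genes (73.3%), in 1 of 10 replication genes (10.0%) and in 20.2% of 27025 genes. An E2F word, TTTCGCGC, TTTGGCGC or TTTCCCGC on either strand, was present in 4 of 10 replication genes (40%), in 2 of 15 mitosis genes (13.3%) and in 2.12% of all genes. CCAAT on either strand was in 8 of 10 and 13 of 15 (80% and 86.7%) against 41.1% of all. In lists of 33 further mitosis and 23 further replication genes with a promoter, 24 (72.7%) held TTTGAA and 9 (39.1%) an E2F word. A match is a description of letters, not of a bound site, and E2F words of opposite strands can overlap, as they do in Mcm5 and Mcm6. Below are the 160 bases before the start of 3 mitosis and 2 replication genes, 5′ to 3′ on the gene's strand, with CHR, CCAAT and E2F words of either strand in capitals.
Ube2c, chr2:164769769-164769928, plus strand: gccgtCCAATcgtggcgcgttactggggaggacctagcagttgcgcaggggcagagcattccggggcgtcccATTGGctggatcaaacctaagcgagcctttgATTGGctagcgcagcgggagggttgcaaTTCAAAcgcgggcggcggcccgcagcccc
Cdc20, chr4:118437344-118437503, minus strand: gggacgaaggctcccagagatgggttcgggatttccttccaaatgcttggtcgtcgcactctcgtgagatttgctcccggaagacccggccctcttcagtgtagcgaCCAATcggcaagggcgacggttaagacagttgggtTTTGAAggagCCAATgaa
Cdk1, chr10:69352913-69353072, minus strand: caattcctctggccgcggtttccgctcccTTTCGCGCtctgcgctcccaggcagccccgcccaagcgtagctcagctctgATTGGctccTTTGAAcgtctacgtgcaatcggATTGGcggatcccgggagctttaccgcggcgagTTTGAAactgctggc
Mcm5, chr8:75109349-75109508, plus strand: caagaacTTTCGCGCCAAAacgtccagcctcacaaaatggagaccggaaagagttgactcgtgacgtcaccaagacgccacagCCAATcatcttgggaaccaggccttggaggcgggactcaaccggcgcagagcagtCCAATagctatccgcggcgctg
Mcm6, chr1:128359706-128359865, minus strand: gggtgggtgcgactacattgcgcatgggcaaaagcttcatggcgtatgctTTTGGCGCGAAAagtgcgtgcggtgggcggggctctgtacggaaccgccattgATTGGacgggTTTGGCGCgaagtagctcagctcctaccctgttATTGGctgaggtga
In these windows Ube2c and Cdc20 held a CHR word 29 and 18 bases before the start, Cdk1 held 1 at 15 and another at 71 bases, and Mcm5 and Mcm6 held none.

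The first question was which cells carried mitosis transcripts. A cell was counted as past the mitosis minimum with at least 2 UMIs of 17 mitosis genes, leaving out Stmn1, a microtubule regulator, and Hmgb2, a chromatin protein, which resting cells also express. In the controls, keratin-high tumour cells had the highest mean at this minimum, with 45.3, 38.4 and 59.2% of cells (47.6% ± 10.6, SD, n = 3), followed by CD8 T cells with 46.9, 27.8 and 44.9% (39.9% ± 10.5). These ranges overlap, as do those of cDC1, the cross-presenting dendritic cells (25.6, 26.2 and 21.6%), conventional CD4 T cells (34.0, 18.2 and 14.8%) and NK cells with ILC1 (13.1, 22.9 and 20.7%). Other T cells, which had no Cd4, Cd8a, Cd8b1 or Foxp3 UMI before thinning, stood at 14.1, 4.92 and 17.5%. Monocytes and macrophages (9.37% ± 2.53), cDC2 (9.71% ± 3.76), B cells (8.34% ± 2.40) and neutrophils (6.25% ± 2.80) were lower. Plasmacytoid dendritic cells, which are mostly non-dividing, gave 2.35, 0 and 0%, at median depths of 4167.5 to 5468 UMIs before thinning against 6419 to 6929 in CD8 T cells. They are shown for reference and give no floor for other types, since levels of single genes such as Cenpa differed between types.

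In the treated samples the shares of CD8, conventional CD4 and NK cells lay below those of every control. Treated CD8 T cells stood at 4.75, 3.82, 4.36 and 2.42% (3.84% ± 1.02, n = 4). Unthinned, CD8 T cells stood at 49.1 to 62.6% in control and 12.3 to 17.6% in treated samples, beside 8.11 to 11.5% and 4.78 to 11.9% of plasmacytoid dendritic cells. Conventional CD4 T cells stood at 3.10, 3.04, 6.54 and 2.41% and NK cells with ILC1 at 5.19, 4.97, 5.15 and 3.45%. Treated B cells (4.45% ± 1.63), neutrophils (1.48% ± 0.861), monocytes and macrophages (5.70% ± 1.17) and cDC1 (13.4% ± 2.77) also lay below every control sample. In B cells the groups nearly met, at 6.20% in treated 3 and 6.33% in control 1, which is 5 of 79 cells. Thinning kept 235 of 567 control and 3475 of 3865 treated B cells. For neutrophils it kept 2940 of 6907 control and 1062 of 1467 treated cells. In other T cells (4.38% ± 0.605) and cDC2 (5.49% ± 4.13) the groups overlapped, the former through control 2. Plasmacytoid dendritic cells were at 1.42% ± 0.552, which overlaps their controls. These shares are scores over members and carry no test.

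**Figure D1:**
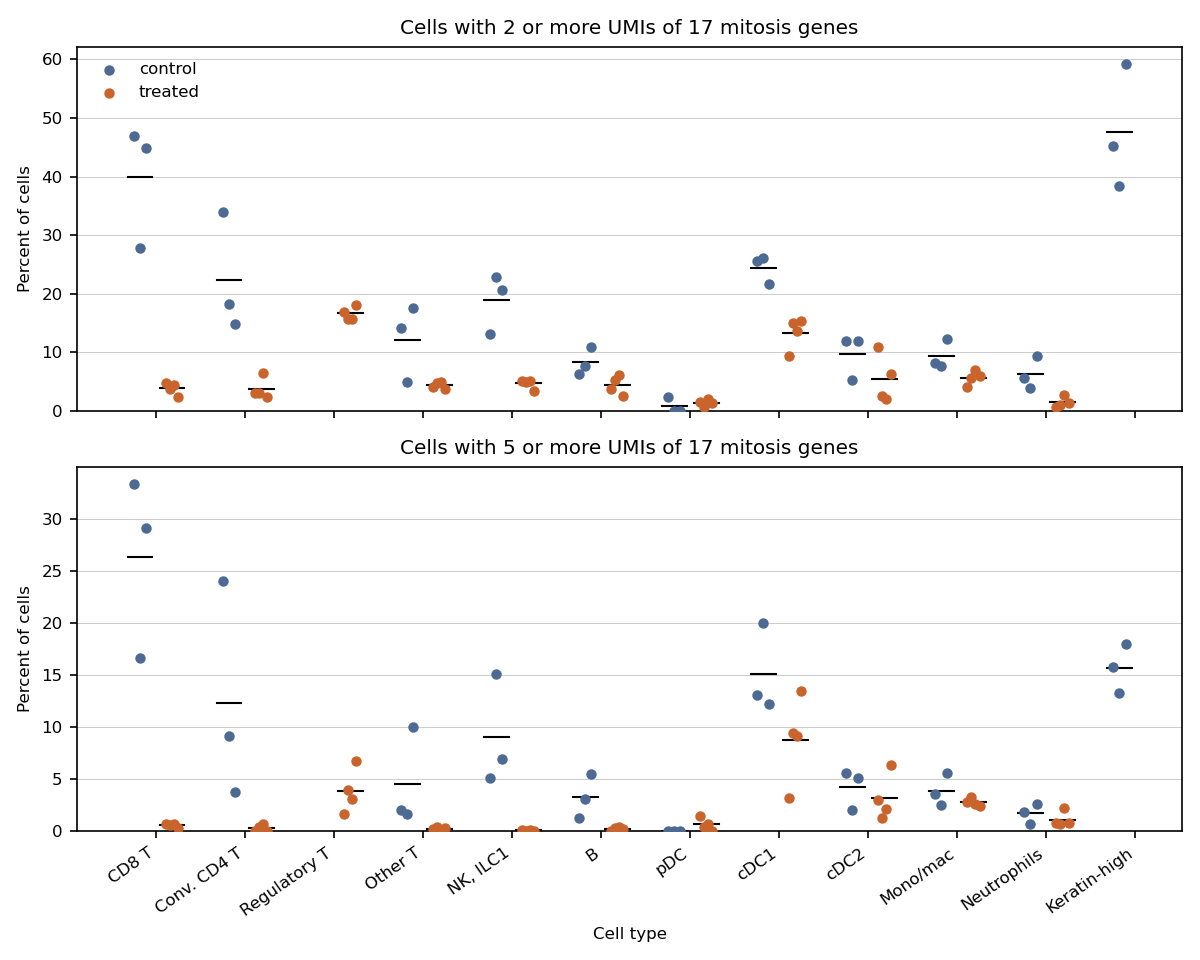
Percent of cells, thinned to 2000 UMIs, with at least 2 (top) or at least 5 (bottom) UMIs of 17 mitosis genes, by cell type; each point is a sample, black bars are group means, and samples need 20 cells. Control CD8 T cells lie at 27.8 to 46.9% and treated ones at 2.42 to 4.75% in the top panel; at the higher minimum treated NK cells lie at 0 to 0.111%. Keratin-high cells are shown for controls only and regulatory T cells for treated only.

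Regulatory T cells, which hold immune responses in check, had the highest share among treated T cells. Their treated samples stood at 16.9, 15.7, 15.8 and 18.1% (16.6% ± 1.13), above every treated sample of CD8, conventional CD4 and other T cells. In 77 of the 131 treated cells that passed (58.8%), all mitosis UMIs came from Cenpa, Mki67 or Top2a. This held for 79 of 125 such treated CD8 T cells (63.2%) and 25 of 36 conventional CD4 T cells (69.4%). With 8 to 15 control cells a sample there was no comparison between groups, and over the controls 9 of 32 cells passed (28.1%, exact binomial 95% interval 13.7 to 46.7%, counting error only). Treated regulatory T cells held Mki67, the proliferation antigen, at 203.4, 239.3, 170.7 and 275.9 CPM, and Ube2c, the conjugating enzyme of the anaphase complex, at 45.4, 52.6, 48.6 and 72.3 CPM. In treated CD8 T cells Mki67 was 25.8, 39.7, 38.0 and 21.6 CPM, lower in each library than in its regulatory T cells.

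A minimum of 5 UMIs, added after seeing the data, counts cells with several mitosis transcripts. Control CD8 T cells passed it in 33.3, 16.7 and 29.1% of cells and treated CD8 T cells in 0.698, 0.588, 0.689 and 0.268%. Control keratin-high cells passed it in 15.7, 13.2 and 17.9% (mean 15.6%). Unlike at 2 UMIs, this mean lay below that of control CD8 T cells (26.4%), though the ranges overlapped. NK cells with ILC1 passed in 5.11, 15.1 and 6.90% of control cells and in 0.0679, 0.0329, 0.111 and 0% of treated cells. Of 13786 treated NK cells and ILC1 634 passed the lower minimum, 511 of them with exactly 2 UMIs, and 7 passed the higher. In 487 of the 634 (76.8%) all mitosis UMIs came from Cenpa, the centromeric histone, Mki67 or Top2a, the decatenating topoisomerase, against 14 of 92 (15.2%) in control NK cells and 7 of 183 (3.83%) in control CD8 T cells. These genes also gave a UMI in 9.46, 4.79 and 7.10% of treated NK cells with no other mitosis UMI, where Ube2c was at 0.0946% and Cdc20 at 0.302%. Treated regulatory T cells passed the higher minimum in 1.64, 3.94, 3.03 and 6.71% of cells. For cDC1 (12.2 to 20% against 3.13 to 13.5%), monocytes and macrophages (2.49 to 5.58% against 2.38 to 3.25%), cDC2 and neutrophils the groups overlapped at this minimum.

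Cells past the replication minimum alone, at least 2 UMIs of the 11 replication genes and fewer than 2 of mitosis, overlapped between the groups in all lymphocytes compared at that minimum. They were 12.5% ± 2.34 of control and 14.6% ± 1.06 of treated CD8 T cells, and 13.9% ± 2.61 and 14.2% ± 0.955 of NK cells and ILC1. With 5 UMIs as the minimum of both lists the replication-only shares lay apart in CD8 T cells (6.28 to 9.26% of control and 0 to 0.279% of treated cells), conventional CD4 T cells (2 to 4.55% and 0 to 0.654%) and NK cells and ILC1 (0.862 to 2.75% and 0.0679 to 0.296%), and overlapped in other T cells and B cells. Cells past both minima of 2 UMIs went from 32.4, 18.5 and 31.6% to 1.12, 1.47, 1.26 and 0.716% in CD8 T cells. Counted whether or not they passed mitosis, cells past the replication minimum of 2 UMIs were fewer in treated CD8 T cells and NK cells. Their share was 33.3 to 44.9% of control and 14.9 to 17.2% of treated CD8 T cells. In NK cells and ILC1 it was 21.6 to 23.4% and 13.6 to 16.4%. In conventional CD4 T cells, other T cells and B cells this share overlapped between the groups. Pcna, Mcm6 and Mcm4 had a UMI in 18.2, 11.5 and 6.50% of treated NK cells with no mitosis UMI. In monocytes and macrophages (8.87% ± 0.908 to 4.76% ± 1.00) and cDC2 (14.9% ± 0.885 to 8.37% ± 2.17) the replication-only share was lower in every treated sample than in every control.

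The second question was which members changed within a type, tested with edgeR on summed UMIs over all genes at a Benjamini-Hochberg adjusted p under 0.05. In CD8 T cells all 30 members fell, against 29.1% of 11511 genes tested, with a median log2 change of -4.18 beside 0.02 for all genes. Mitosis genes fell by a median of 4.76 and replication genes by 2.32 on the log2 scale. Mki67 was 719.6, 330.0 and 592.1 CPM in the controls and 25.8, 39.7, 38.0 and 21.6 in the treated samples (log2 -4.28, SE 0.24, edgeR adjusted p = 2.73e-08). Ube2c was 314.9, 78.2 and 275.1 CPM against 2.11, 12.7, 5.61 and 1.86, the strongest fall of the 30 (log2 -5.66, SE 0.46, edgeR adjusted p = 3.94e-07). Control 2 was the lowest control for both, and no treated sample reached it. Pclaf, a PCNA-binding factor counted here with the mitosis genes, was 462.7, 310.9 and 392.2 CPM against 12.9, 14.1, 17.8 and 6.07 (log2 -5.10, SE 0.23). Cenpa fell least among the mitosis genes, from 212.8, 152.9 and 202.0 to 74.6, 66.4, 91.9 and 47.4 CPM (log2 -1.58, SE 0.18). No member rose in CD8, conventional CD4 or other T cells, NK cells with ILC1, B cells, neutrophils or cDC1 (0 by edgeR, 0 at its unadjusted p under 0.05 and 0 by DESeq2), where 26.9, 7.91, 8.21, 22.3, 9.80, 28.1 and 17.6% of all genes did.

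Within the replication genes, Rrm2, Tk1 and Tyms had larger fitted falls than the helicase subunits and the clamp. In CD8 T cells Rrm2, the regulated subunit of ribonucleotide reductase, was 138.8, 93.8 and 118.4 CPM against 9.85, 4.78, 7.56 and 5.23 (log2 -4.24, SE 0.20). Tk1, thymidine kinase, and Tyms, thymidylate synthase, fell by 4.32 and 3.78 on the log2 scale, and Rrm1, the other subunit of the reductase, by 2.34. The helicase subunit Mcm5 was 135.6, 132.0 and 123.3 CPM against 18.8, 21.4, 19.02 and 14.01 (log2 -2.95, SE 0.13). Pcna was 301.6, 264.0 and 214.5 CPM against 109.8, 109.4, 113.4 and 109.7 (log2 -1.33, SE 0.11). Mcm2, Mcm4 and Mcm6 fell by 1.31 to 1.51, and Mcm3 and Mcm7 by 2.21 and 2.32, so the falls of the 6 subunits of the helicase, which act as 1 complex, spanned 1.31 to 2.95.

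**Figure D2:**
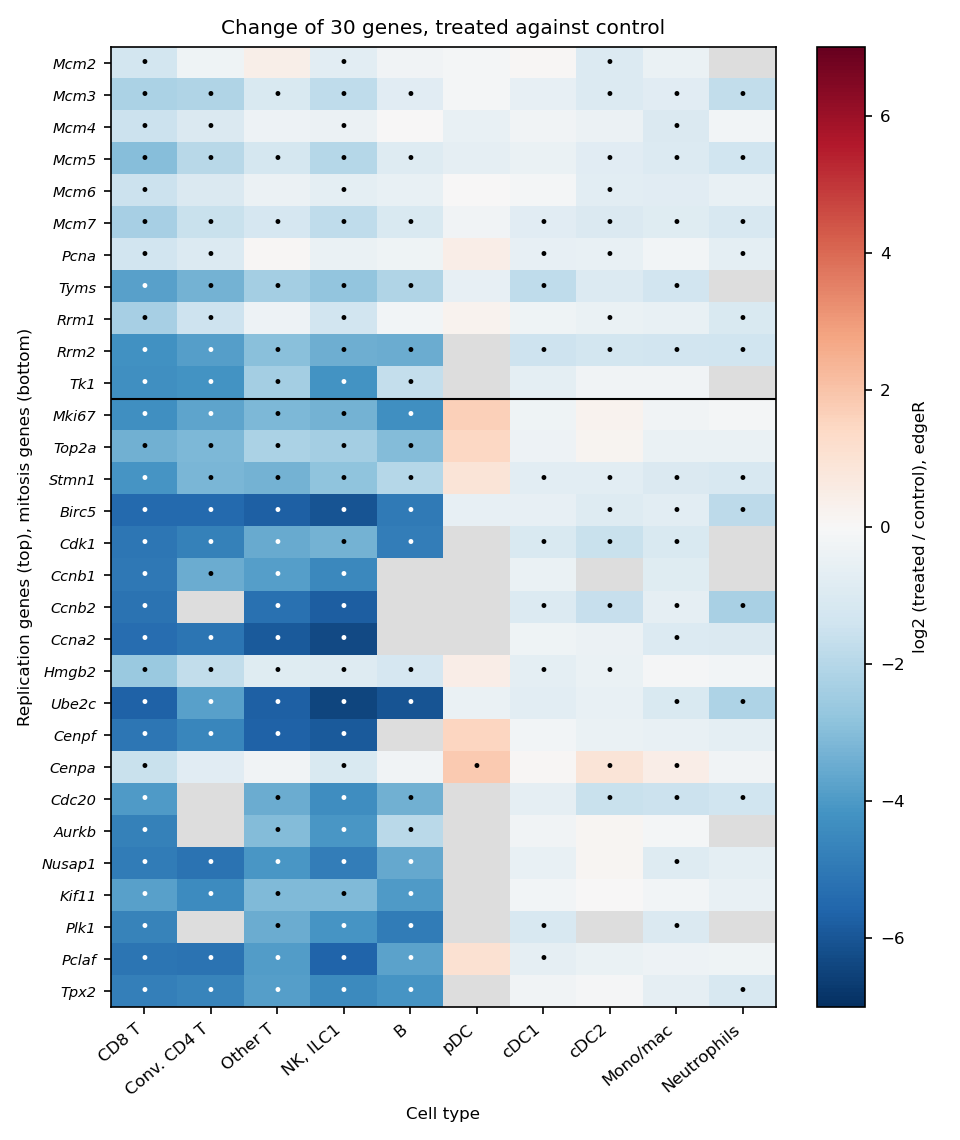
log2 change, treated against control, of the 30 genes (rows; replication above the line, mitosis below) in 10 cell types (columns), from edgeR on summed UMIs; dots mark an adjusted p under 0.05 and grey marks genes not tested. The lymphocyte columns are blue with the deepest values among mitosis genes, for example Ube2c at -5.66 in CD8 T cells, while Cenpa is red in monocytes and macrophages, cDC2 and plasmacytoid dendritic cells.

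NK cells and ILC1, innate lymphocytes of the liver, lost 29 of the 30 members, against 22.0% of 13971 genes. Ube2c was 76.8, 115.2 and 95.5 CPM against 2.49, 0.1703, 0.873 and 0.939 (log2 -6.44, SE 0.40, edgeR adjusted p = 1.48e-06). Mcm4 moved little, from 49.9, 45.9 and 40.7 to 35.2, 35.5, 37.4 and 32.8 CPM (log2 -0.43, SE 0.11), although every treated sample was below every control. Pcna was the member that did not pass, at 102.3, 181.3 and 104.3 CPM against 93.5, 95.6, 112.2 and 108.0 (log2 -0.48, SE 0.19, edgeR adjusted p = 0.0584). Mcm2 passed with overlapping groups (log2 -0.73, edgeR adjusted p = 0.0302), since control 2 held 57.6 CPM and the other controls 24.3 and 30.1.

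Conventional CD4 T cells lost 23 of 26 members tested, against 10.8% of 7848 genes, and the 3 that did not pass were Cenpa, Mcm6 and Mcm2. Mki67 there was 650.5, 210.5 and 285.4 CPM against 24.0, 52.4, 33.0 and 25.1 (log2 -3.69, SE 0.32). The controls rest on 23 to 54 cells a sample, Ccnb2, Cdc20, Aurkb and Plk1 had too few counts for the test, 13 members passed without control 1, and 5 passed with cells thinned before summing. Here and below, the share of all genes passing in such refits is not given, so a lower count need not be particular to members. Other T cells lost 24 of 30, against 9.26% of 12359 genes. Their Ube2c was 14.97, 34.8 and 162.5 CPM against 0.931, 1.82, 1.14 and 1.47 (log2 -5.74, SE 0.63), high in control 3, and 11 members passed without that sample and 13 with cells thinned before summing. Mcm2 was higher in every treated sample, at 38.7, 35.5, 33.9 and 38.2 against 24.9, 26.1 and 28.5 CPM, and did not pass (log2 0.40, edgeR adjusted p = 0.301).

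B cells lost 20 of 26 members tested, against 13.6% of 9747 genes, made up of 14 of 15 mitosis and 6 of 11 replication genes. Ube2c was 21.0, 220.8 and 52.5 CPM against 0, 1.19, 1.51 and 2.29 (log2 -6.05, SE 0.65), and control 2 alone held over 200. Cenpa there was 93.2, 178.7 and 98.3 against 90.1, 121.8, 127.9 and 74.5 CPM and did not pass (log2 -0.23, edgeR adjusted p = 0.501). The B cell controls had a median of 1765 to 2462 UMIs per cell, and with cells thinned before summing 4 members passed.

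**Figure D3:**
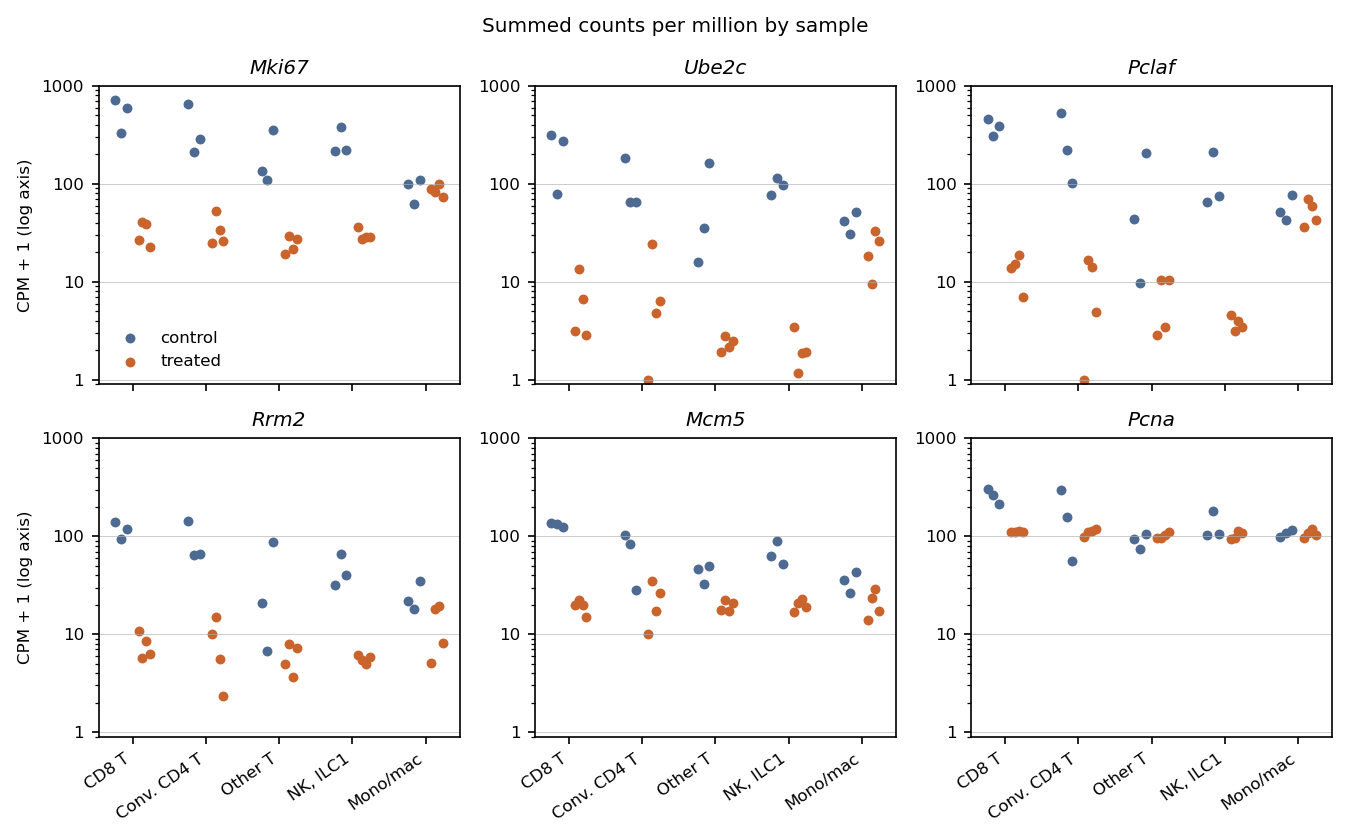
CPM plus 1, on a log axis, of 6 members in 5 cell types; each point is a sample. Ube2c in CD8 T cells lies at 78.2 to 314.9 CPM in controls and 1.86 to 12.7 in treated samples, whereas Pcna overlaps between the groups in every type shown other than CD8 T cells.

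Of the members tested, 10 to 15 fell in each of monocytes with macrophages, cDC1, cDC2 and neutrophils, and whether these types differed from lymphocytes was not tested. Monocytes and macrophages lost 15 of 30 members, against 28.1% of 10496 genes lower, 8 without treated 4, 4 with cells thinned before summing and 25 without the low-count filter. Cdc20, an activator of the anaphase complex, was 11.2, 7.06 and 18.1 CPM against 1.38, 4.73, 6.64 and 5.73 (log2 -1.52, SE 0.45, edgeR adjusted p = 0.0132), with no overlap. Mki67 overlapped and did not pass, at 98.2, 61.0 and 109.5 against 86.8, 81.4, 99.6 and 72.7 CPM (log2 -0.24, edgeR adjusted p = 0.295). Cenpa rose, against 28.3% of genes higher, from 40.7, 35.2 and 46.9 to 47.5, 73.9, 68.0 and 63.0 CPM (log2 0.46, SE 0.14), but no member was called higher without control 1 or 2 or treated 2, 3 or 4, without the low-count filter or with doublet calls removed. Cenpa also rose in cDC2, where 20.5% of genes did, from 53.3, 31.7 and 42.3 to 108.2, 83.0, 66.9 and 69.6 CPM (log2 0.89, SE 0.19, edgeR adjusted p = 0.00126). In cDC2, 14 of 28 members tested fell, against 22.1%, and 8 of these were replication genes, while 2 fell with cells thinned before summing. In cDC1, 10 of 30 fell, against 18.0%, led by Tyms at 36.8, 53.5 and 42.3 against 18.7, 15.8, 15.03 and 5.62 CPM (log2 -1.76, SE 0.27). In cDC1, 2 fell with cells thinned before summing and 19 without the low-count filter. Treated 1 stood apart among cDC1, with 8.50 CPM of Ube2c beside 67.0 to 102.6 in the other treated samples, and rests on 32 cells.

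Plasmacytoid dendritic cells had 18 members tested, of which 0 fell (edgeR, against 7.86% of genes) and 1 rose (against 6.09%). At an unadjusted p under 0.05 still 0 fell and 4 rose, and DESeq2 called 0 lower and 1 higher. Cenpa was the member that rose, from 9.82, 16.2 and 0 to 52.3, 37.6, 33.3 and 17.8 CPM (log2 1.81, SE 0.55, edgeR adjusted p = 0.0355), on 5, 6 and 0 UMIs in the controls, and it was not called when control 1, 2 or 3 or treated 1 or 2 was left out, while 4 members were higher without treated 4.

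Neutrophils lost 12 of 23 members tested, against 29.2% of 7937 genes, 21 without treated 3, 5 with cells thinned before summing and 22 without the low-count filter. Ube2c was 48.9, 28.1 and 72.1 CPM against 4.90, 2.62, 26.8 and 16.2 (log2 -2.18, SE 0.50). Neutrophils were split, by a limit chosen after seeing the data, at 50 UMIs per 10000 of the immature granule genes Ltf, Camp, Ngp, Elane, Mpo and Fcnb. Past the mitosis minimum were 11 of 75 granule-rich treated cells (14.7%, exact 95% interval 7.56 to 24.7%) and 4 of 987 others (0.405%, 0.111 to 1.03%). In the controls they were 53 of 805 (6.58%, 4.97 to 8.52%) and 129 of 2135 (6.04%, 5.07 to 7.14%). With 5 or more UMIs they were 19 of the 2135 control cells and 0 of the 987 treated ones, where 3 cells would be 0.304% and the exact 95% interval reaches 0.373%. These counts pool samples and their intervals cover counting error only. Of the 182 control neutrophils past the mitosis minimum, 40 (22.0%) were doublet calls, against 7.79% of those past neither minimum. Exactly 2 mitosis UMIs were held by 97 of the 182. Among the 15 treated ones, 1 was a doublet call and 4 held exactly 2.

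Tumour RNA in the control values was estimated from Cdkn2a, and its effect on the changes was not tested. Cdkn2a, a cell cycle inhibitor gene at 472.4 to 548.6 CPM in control tumour cells, was at 8.68 to 34.1 CPM in control CD8 T cells and 15.9 to 47.7 in control neutrophils, and at 0 to 0.956 in those of treated samples. If all Cdkn2a in a type were tumour RNA, that RNA would account for 0.488% of control Mki67, 3.63% of Ube2c and 6.27% of Cdc20 in CD8 T cells, and 0.969, 8.20 and 10.97% in NK cells and ILC1, and 1.82, 10.8 and 17.5% in B cells. In neutrophils it would account for 6.44, 22.4 and 32.7% and in monocytes and macrophages for 2.45, 16.5 and 23.8%. For Rrm2 it would be 5.78% in CD8 T cells, 14.9% in NK cells with ILC1, 31.1% in B cells, 42.0% in neutrophils and 23.2% in monocytes and macrophages, the highest of the 30 members in NK cells, B cells and neutrophils. In plasmacytoid dendritic cells its median over the members was 41.6% of the control value, beside 1.59% in CD8 T cells. For Cdk1, Rrm2 and Cdc20 in plasmacytoid dendritic cells it came to 445, 125 and 116%, more than was measured.

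The third question was whether cell types differed in the size of the change, by a term for cell type and group in edgeR with the sample as a block. Against NK cells and ILC1, CD8 T cells fell more in 9 of 30 members, where 10.5% of 12655 genes did, and less in 0, where 7.74% did (edgeR, and 0 at an unadjusted p under 0.05). By exact permutation over samples, at an unadjusted p under 0.05, 7 members fell more and 0 less, among them 6 of the 9. The share of all genes at that p is not given. The exact permutation p was 0.0571 for Stmn1 and Cdk1 and 0.114 for Rrm1. The 9 were Stmn1, Pcna, Cdk1, Mcm4, Mcm5, Mcm6, Mcm7, Rrm1 and Hmgb2, so 6 were replication genes. Mcm4 differed by -1.05 (SE 0.17, edgeR adjusted p = 0.000473) and Pcna by -0.92 (SE 0.19, edgeR adjusted p = 0.00327) on the log2 scale. Ube2c and Mki67 did not pass this test. The count was 2 without control 1, 5 without control 3 and 19 without control 2. Against conventional CD4 T cells, CD8 T cells fell more in Stmn1, Hmgb2, Ube2c and Cenpa, against 3.25% of 10247 genes, and less in 0, against 1.45%, with 10 members past the test without control 1, 2 without control 2, and 1 without control 3 or treated 2. By exact permutation Hmgb2 and Cenpa had p = 0.0286, Stmn1 0.114 and Ube2c 0.257, the last 2 not under 0.05. NK cells and ILC1 fell more than other T cells in Tk1 and Cenpa, against 2.86% of 13482 genes, and less in 0, against 1.19% (for both pairs 0 by edgeR also at an unadjusted p under 0.05). More negative members were 0 without control 2, where 1 member was instead more positive, 1 without control 1, treated 1 or treated 2, and 11 without control 3. By exact permutation Cenpa had p = 0.0286 and Tk1 0.143. The comparison of CD8 with regulatory T cells could not be fitted, since no control sample held 20 regulatory T cells.

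The share of cells with an Mki67 UMI was tested by an exact two-sided permutation test over samples in 11 types. It was 29.3% ± 5.36 of control and 2.46% ± 0.629 of treated CD8 T cells, lower in 4 of 4 treated samples than in any control. The exact p of 0.0286 is the smallest that 35 splits allow and was 0.0629 after adjustment over the 11 tests, so no type passed. NK cells and ILC1 (12.4% ± 5.12 and 4.80% ± 0.561), conventional CD4 T cells (21.3% ± 9.53 and 4.13% ± 2.32), B cells (5.00% ± 1.44 and 0.680% ± 0.452) and monocytes and macrophages (6.97% ± 1.496 and 4.45% ± 0.722) had the same exact p. Plasmacytoid dendritic cells were at 0.392% ± 0.679 and 1.65% ± 1.10, a difference that was -0.795 points unthinned. Control keratin-high cells had Mki67 in 9.92% ± 2.22 of cells, with every sample below every control sample of CD8 T cells. Treated NK cells had Mki67 in 4.80% of cells and treated CD8 T cells in 2.46%, while their Ube2c stood at 1.12 and 5.56 CPM in the mean.

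Some of the 30 genes, such as Pclaf and Rrm2, stood at other levels in tumour cells than in immune cells of the same control samples. Pclaf was 8.51, 7.36 and 7.86 CPM in keratin-high cells and 462.7, 310.9 and 392.2 in CD8 T cells (log2 -5.38, SE 0.14, edgeR with sample as a block, adjusted p = 2.78e-24). Against cDC1, NK cells and monocytes with macrophages Pclaf was lower by 4.23, 3.39 and 2.70 on the log2 scale. The ratio of Pclaf to Ube2c counts, a comparison across types of the same pair of genes, was 0.0345 to 0.0505 in keratin-high cells and 1.43 to 3.98 in CD8 T cells. Rrm2 was higher in tumour cells than in each of the 4 types, at 175.8, 155.3 and 171.9 CPM (log2 0.75 against CD8 T cells and 2.97 against monocytes and macrophages). Mki67 was 70.9, 48.2 and 70.3 CPM in keratin-high cells and lower than in CD8 T cells by 2.84 on the log2 scale. Members lower and higher in keratin-high cells numbered 24 and 2 of 30 against CD8 T cells (31.5 and 36.0% of all genes), 7 and 9 against NK cells (30.8 and 36.8%), 4 and 21 against monocytes and macrophages (40.5 and 42.0%) and 11 and 10 against cDC1 (35.8 and 40.8%). Against NK cells and cDC1 the counts of members were thus near or below the share of all genes.

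The order was the same among cells past the mitosis minimum, counted for each gene by the other mitosis genes. Pclaf had a UMI in 2.26% of such keratin-high cells and in 59.9, 37.1 and 47.2% of such CD8 T cells, NK cells with ILC1 and cDC1. Mki67 had one in 15.5% of them and in 66.7, 56.0 and 60.5%. Rrm2 went the other way, with 37.3% in keratin-high cells against 27.3, 19.6 and 24.0%, as did Cdc20 with 23.9% against 18.0, 10.1 and 9.33%. Before thinning the median depth was 41190 UMIs in keratin-high cells, so their thinned UMIs are a smaller part of each cell than those of lymphocytes.

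**Figure D4:**
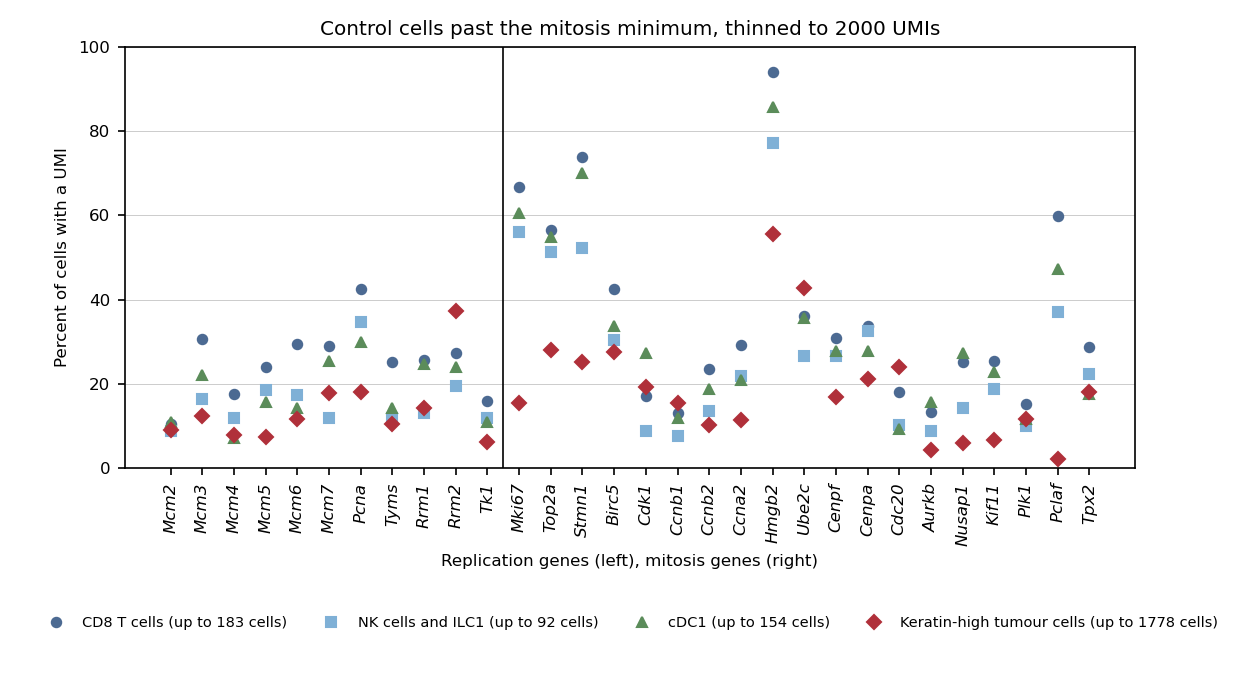
Percent of control cells past the mitosis minimum with a UMI of each gene, in cells thinned to 2000 UMIs; a gene's own UMIs are not used to choose its cells. Keratin-high cells (red) are at 2.26% for Pclaf and 15.5% for Mki67, under all 3 immune types shown, and at 37.3% for Rrm2, above them.

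Most further genes of the same processes fell in CD8 T cells and in NK cells with ILC1. Of 30 further replication genes 29 of 30 tested fell in CD8 T cells and 23 of 30 in NK cells and ILC1, where 1 rose, and of 39 further mitosis genes 38 of 39 and 37 of 38 fell, against 29.1 and 22.0% of all genes. In conventional CD4 T cells 18 of 20 further mitosis and 11 of 15 further replication genes fell, against 10.8%. Cdca8, a partner of Aurkb and Birc5, went from 145.4 ± 41.7 to 6.34 ± 1.91 CPM in CD8 T cells and from 63.7 ± 12.3 to 2.47 ± 0.342 in NK cells. Other T cells lost 23 of 33 further mitosis and 8 of 28 further replication genes, against 9.26%, with 1 replication gene higher. B cells lost 18 of 22 and 4 of 18, against 13.6%, with 2 replication genes higher. In monocytes and macrophages 14 of 36 and 14 of 28 fell, against 28.1%, and 1 of each list rose.

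Genes of cell cycle entry moved in both directions, more often down in most types. In CD8 T cells 6 of 8 fell and 1 rose, against 29.1 and 26.9% of all genes. In NK cells and ILC1 5 of 8 fell and 1 rose, against 22.0 and 22.3%. Neutrophils lost 5 of 6 tested and 1 rose, against 29.2 and 28.1%. In plasmacytoid dendritic cells 1 of 8 fell and 1 rose, against 7.86 and 6.09%. Cdk4, chosen after its values were seen, encodes the kinase that cyclins D bind and fell in 9 of 10 types (log2 -1.82 in neutrophils to -0.61 in cDC2). Cyclin D2, Ccnd2, fell in cDC1 from 597.2 ± 145.1 to 162.4 ± 80.7 CPM and in monocytes and macrophages from 289.0 ± 6.96 to 99.2 ± 18.2. Cyclin D1, Ccnd1, rose in cDC1 from 102.5 ± 3.49 to 275.6 ± 66.8 CPM, in cDC2 from 177.6 ± 12.5 to 598.3 ± 120.9 and in plasmacytoid dendritic cells from 255.3 ± 24.0 to 913.8 ± 89.5. Single genes of the further lists went against the members, such as Kif23, a cytokinesis kinesin, in neutrophils (23.9 ± 0.141 to 151.4 ± 10.7 CPM, log2 2.47) and E2f2 in monocytes and macrophages (18.4 ± 0.835 to 72.8 ± 10.0 CPM, log2 1.83).

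By number, cells past the mitosis minimum came from different types in the groups. In the controls 40.1% ± 21.3 of them were keratin-high cells, 22.7% ± 9.79 monocytes and macrophages, 5.54% ± 3.15 cDC1, 5.50% ± 1.15 neutrophils and 5.32% ± 4.06 CD8 T cells, out of 3628 cells in all. In the treated samples 39.0% ± 2.45 were NK cells and ILC1, 14.04% ± 1.83 other T cells, 10.1% ± 7.07 B cells and 8.28% ± 4.33 regulatory T cells, out of 1637. The treated samples held 14525 NK cells and ILC1 and the controls 516, so this share also reflects how many cells of each type were captured, which need not be their number in the liver. In 487 of the 634 treated NK cells and ILC1, 180 of 229 other T cells, 134 of 174 B cells and 77 of 131 regulatory T cells, all mitosis UMIs came from Cenpa, Mki67 or Top2a. With 5 or more UMIs the treated cells were 7 NK cells and ILC1, 11 other T cells and 9 B cells. Regulatory T cells then numbered 33, and CD8 T cells and monocytes with macrophages 18 each.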

How the data were processed

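The unit was the UMI count, a whole number of distinct captured molecules per gene and barcode, which the authors deposited as 1 filtered matrix for each of the 7 samples, per the file headers. Droplet 3′ libraries were processed with bcl2fastq 5.0.1 and Cell Ranger 7.0.0, per the submitters' processing notes. Which genome build and gene models were used is not given in the sources used here.

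The 30 members, the further gene lists and the markers were chosen with earlier results of these data known. A barcode was kept if it had 500 or more UMIs, 200 or more genes and a mitochondrial share of UMIs under 20%. A cell took a type when its marker UMIs passed that type's minimum, both as a count and per 10000 UMIs. Where several lineages passed, the marker rate relative to its minimum had to be at least 2 times that of the next lineage. T cells needed a Cd3e or Trac UMI, and NK cells and ILC1 had none. The cDC1 and cDC2 gates gave way to the other lineages. Of the kept cells 1580 were mixed and 5804 reached no minimum, and both were left out. Mixed cells carried markers of several lineages, or were T cells with Cd8a or Cd8b1 beside Cd4 or Foxp3. No other doublets were removed in the values given first, and removing simulated-pair doublet calls (5.80 to 8.35% of cells a sample) was an alternative.

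For shares each cell was thinned at random to 2000 UMIs, and a sample needed 20 cells of a type. Types were given before thinning, so shallow CD4 or CD8 T cells without a UMI of these markers count as other T cells. Control CD8 T cells past the mitosis minimum had a median of 10493 UMIs, and those past neither minimum had 5342.5. Of control cells 25.9% and of treated cells 8.03% fell short of 2000 UMIs. UMIs were summed per sample and type and tested with edgeR 4.0.16 (quasi-likelihood, TMM scaling, low-count filter, Benjamini-Hochberg adjustment over all genes tested) in R 4.3.3, without replicate numbers in the fit. DESeq2 1.42.0 was an alternative. CPM are a gene's summed UMIs per 1000000 of the sum over all genes. Of the further lists at most 3 genes per type are named, by size of the log2 change among genes past the test with a mean of at least 20 CPM. On counts simulated for each type with 200 genes changed, the fit found 62% of 2-fold and 95% of 4-fold changes in CD8 T cells (11511 genes), 32 and 77% in conventional CD4 T cells (7848 genes), 49 and 77% in NK cells and ILC1 (13971 genes) and 75 and 97% in monocytes and macrophages (10496 genes). False calls were 2.68 to 7.35% of calls.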

Additional observations from a re-analysis of the deposited data

Results flagged for a closer look

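Of 60 groups of 4 samples checked for a sample far from the others, 3 held one, and chance gives about 1 in 20. Treated 3 had 6.54% of conventional CD4 T cells past the mitosis minimum, where the other treated samples had 2.41 to 3.10%. Treated 4 had 3.45% of NK cells and ILC1 past it, where the others had 4.97 to 5.19%. Treated 3 had 113.4 CPM of Pcna in CD8 T cells, where the others had 109.4 to 109.8, a gap that is wide only beside their closeness.

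The change between the groups differed between cell types for 15 pairs of gene and types, by the edgeR term for type and group with the sample as a block. The log2 differences of CD8 T cells from NK cells and ILC1 were as follows, with the edgeR adjusted p in parentheses. Among replication genes they were -1.05 for Mcm4 (0.000473), -1.02 for Mcm5 (0.00323), -0.83 for Mcm6 (0.00192), -0.64 for Mcm7 (0.0254), -0.92 for Pcna (0.00327) and -0.98 for Rrm1 (0.0205). Among mitosis genes they were -1.68 for Cdk1 (0.0291), -1.34 for Stmn1 (0.0131) and -1.66 for Hmgb2 (0.000250), so the fall was larger in CD8 T cells for all 9.

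Against conventional CD4 T cells, the edgeR log2 differences of CD8 T cells were -0.99 for Stmn1 (adjusted p = 0.0228), -0.92 for Hmgb2 (1.40e-05), -1.57 for Ube2c (0.0176) and -0.83 for Cenpa (0.0227). Those of NK cells and ILC1 from other T cells were -1.90 for Tk1 (adjusted p = 0.0244) and -0.87 for Cenpa (0.00427).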

How the results depend on the processing

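Of 460 recomputed values 387 stayed near the value given, or on its side of the threshold, and 8 changed sign, all of them of differences without a test or not past it. In plasmacytoid dendritic cells the difference in the mitosis share went from 0.633 points to -2.75 at 4000 UMIs, -1.998 unthinned, -0.284 with all 19 mitosis genes and -5.21 at a minimum of 1 UMI, and that in the Mki67 share from 1.26 to -1.75 at 4000 UMIs and -0.795 unthinned. In cDC2 the Mki67 difference went from 0.499 to -1.09 unthinned and -1.32 without control 2. With cells thinned before summing the lower counts were 5 in conventional CD4 T cells, 13 in other T cells, 4 in B cells, 5 in neutrophils, 4 in monocytes and macrophages and 2 in each of cDC1 and cDC2, with 0 higher in plasmacytoid dendritic cells. Without the low-count filter they were 22, 25 and 19 in neutrophils, monocytes with macrophages and cDC1, and 7 higher in plasmacytoid dendritic cells, which had 0 with doublet calls removed. The replicate numbers did not pair the samples, since 1 of 32 correlations between same-numbered samples was over 0.1 (-0.08 to 0.13), and with the replicate number as a block the counts were 20 in conventional CD4 T cells, 19 in cDC2 and 6 higher in plasmacytoid dendritic cells. Leaving out 1 sample gave lower counts of 30 to 30 in CD8 T cells, 13 to 29 in conventional CD4, 11 to 24 in other T cells, 27 to 30 in NK cells and ILC1, 15 to 23 in B cells, 10 to 21 in neutrophils, 8 to 22 in monocytes and macrophages, 7 to 12 in cDC1, 11 to 16 in cDC2 and 0 to 4 higher in plasmacytoid dendritic cells. The counts of differences between types then ran from 2 to 19, 1 to 10 and 0 to 11. The share of all genes passing is not given for any of these refits. The treated minus control difference in the mitosis share, in percentage points, moved with depth: at 4000 UMIs it was -47.1 in CD8, -44.1 in conventional CD4 and -17.8 in other T cells, -6.82 in monocytes and macrophages and -16.2 in cDC1. At 1000 UMIs it was -1.55 in neutrophils and -7.31 in cDC1, and unthinned it was -20.7 in NK cells with ILC1, -24.3 in monocytes with macrophages, -30.9 in cDC1 and -9.50 in cDC2. With all 19 mitosis genes it was -32.7, -1.13, -3.76, -7.72, -11.5, -7.12, -16.1 and -11.3 in conventional CD4, other T, NK, B, neutrophils, monocytes with macrophages, cDC1 and cDC2. With a minimum of 1 UMI it was -13.9, -17.8, -10.2 and -15.8 in B cells, neutrophils, monocytes with macrophages and cDC1, with 3 it was -1.83 in neutrophils, and with 5 it was -8.99, -0.618 and -6.28 in NK cells, neutrophils and cDC1. Leaving out 1 sample, the share difference ran from -42.1 to -32.5 in CD8, -22.3 to -12.7 in conventional CD4, -11.4 to -5.15 in other T, -17.1 to -12.2 in NK, -4.89 to -2.56 in B cells, -5.98 to -3.24 in neutrophils, -4.49 to -2.21 in monocytes with macrophages, -12.5 to -9.75 in cDC1, -6.39 to -3.08 in cDC2 and 0.240 to 1.42 in plasmacytoid dendritic cells. The difference in the share with an Mki67 UMI passed the adjusted threshold unthinned, at -38.3 in CD8, -21.9 in conventional CD4, -7.29 in other T, -12.2 in NK, -2.49 in B cells, -2.46 in neutrophils and -10.8 in monocytes and macrophages. Without 1 sample it ran from -29.5 to -24.1, -22.2 to -12.8, -5.74 to -0.507, -9.12 to -4.69, -4.92 to -3.53, -2.19 to -1.38 and -3.20 to -1.72 in the same order, and from -8.47 to -5.00 in cDC1, -1.32 to 1.63 in cDC2 and 0.817 to 1.65 in plasmacytoid dendritic cells. The causes of these moves were not tested. The minimum of 5 UMIs, the call without Cenpa, Mki67 and Top2a, the limit for neutrophils and the comparison of keratin-high with immune cells were chosen after seeing the data. The stricter gate left too few conventional CD4 T cells for a fit. Control lymphocytes were few, and a sample's control shares rest on 22 cells at the least.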
